A study of Mus musculus with 10 samples.

Results

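Expression of 9 visual cycle and retinoid genes was read out from the RPE/choroid complex of mice, the retinal pigment epithelium (RPE) together with the vascular layer behind it. The genes were chosen by name: Stra6, Ttr, Lrat, Rpe65, Rlbp1, Rdh5, Rdh10, Rdh11 and Rgr. All 9 were found among the 55487 distinct genes of the count table, and all 9 passed the low-count filter. The 5 samples called ADQ came from mice with the genotype iDTR Adiponectin-Cre and the 5 control samples from mice with the genotype iDTR. The iDTR allele, on C57BL/6, places a diphtheria toxin receptor (HBEGF) at the ROSA26 locus behind a Cre-dependent switch, and control mice carry it too. Diphtheria toxin went into the peritoneum of mice of both groups. Injections are described as daily over 7 weeks for Cre carriers, and no schedule is stated for controls. Cre under the adiponectin promoter acts in fat cells, and the labels do not give the age of the mice. Whether the samples of a group are different mice is not stated, and the p-values thus reflect sample-to-sample spread that could be technical.

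The visual cycle returns the light-bleached chromophore of the photoreceptors to its 11-cis form, and most of its enzymes sit in the RPE. Retinol enters the RPE from blood through STRA6, delivered by the retinol-binding protein RBP4 bound to transthyretin, the product of Ttr. LRAT esterifies the retinol, RPE65 turns the ester into 11-cis retinol, CRALBP (from Rlbp1) binds it, and RDH5, RDH10 and RDH11 can oxidise it to 11-cis retinal. RGR is an opsin of the RPE and of Müller glia that binds all-trans retinal. Müller glia of the neural retina also use Rlbp1 and Rgr.

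Promoter windows of the members were taken from RefSeq (GRCm38.p6), from 250 bases before to 50 after each start. Ttr was left out of the search, and the table held no window for Rdh10. The other 7 members had 11 windows. Stra6 and Rdh11 had more than 1 window each, and some of those of Stra6 overlapped, so counts of windows are not counts of genes. Windows are printed for Rdh5, Rlbp1 and Rgr, whose levels moved together across libraries, and for Rpe65, the isomerase at the centre of the cycle, which followed them less closely. Capitals mark the letters searched on both strands: TAATCC, the core that OTX2 binds, CACGTG and CATGTG, E-box letters that MITF can bind, and ACAATGG, a SOX9 core. None of these words is contained in another.
Rdh5, chr10:128919248-128919547, minus strand: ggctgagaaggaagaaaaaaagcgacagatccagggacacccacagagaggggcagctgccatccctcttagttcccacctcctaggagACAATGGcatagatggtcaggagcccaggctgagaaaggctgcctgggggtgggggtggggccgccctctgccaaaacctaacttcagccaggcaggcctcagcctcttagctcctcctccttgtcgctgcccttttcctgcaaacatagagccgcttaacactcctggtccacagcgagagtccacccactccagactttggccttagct
Rlbp1, chr7:79386978-79387277, minus strand: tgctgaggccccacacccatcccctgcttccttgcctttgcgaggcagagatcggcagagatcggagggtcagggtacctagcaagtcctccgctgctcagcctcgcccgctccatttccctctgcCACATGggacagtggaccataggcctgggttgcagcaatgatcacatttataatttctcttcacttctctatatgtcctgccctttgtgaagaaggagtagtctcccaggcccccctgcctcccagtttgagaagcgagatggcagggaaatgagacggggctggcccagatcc
Rgr, chr14:37048965-37049264, minus strand: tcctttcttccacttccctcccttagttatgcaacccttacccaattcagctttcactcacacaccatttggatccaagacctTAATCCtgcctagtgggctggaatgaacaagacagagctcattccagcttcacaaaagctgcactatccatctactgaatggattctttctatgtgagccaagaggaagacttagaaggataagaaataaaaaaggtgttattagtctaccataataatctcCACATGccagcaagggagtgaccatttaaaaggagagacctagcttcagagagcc
Rpe65, chr3:159598931-159599230, plus strand: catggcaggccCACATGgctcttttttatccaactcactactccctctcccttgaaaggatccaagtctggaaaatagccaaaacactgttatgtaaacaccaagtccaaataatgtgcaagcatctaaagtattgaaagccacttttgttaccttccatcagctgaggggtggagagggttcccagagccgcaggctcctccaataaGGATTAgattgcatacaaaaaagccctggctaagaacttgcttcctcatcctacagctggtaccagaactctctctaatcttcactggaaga
The OTX2 core was found in 2 of the 11 windows, those of Rpe65 and Rgr, against 7.1% of all 32851 windows in the table. E-box letters were found in 4 of 11, those of Rpe65, Rgr, Rlbp1 and 1 of the windows of Rdh11, against 20.4% of all windows. The SOX9 core was found in 1 of 11, that of Rdh5, against 3.7%. No window of Stra6 held a match to any of these. A match describes the letters of the window only.

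Most of the members were abundant transcripts of the tissue. Together they took 3.90 ± 0.326% of all counts in ADQ and 4.31 ± 0.372% in control (SD, n = 5 each). Rgr alone took 1.41 to 1.81% of a library and Ttr 0.828 to 1.45%. Per kilobase of transcript, levels as TMM-scaled counts per library size (CPM) spanned more than 2 orders of magnitude on the plot of level per length. Ttr stood highest, at 8645 ± 2034 CPM per kb in ADQ and 10775 ± 2136 in control. Rgr, Rdh5, Rlbp1 and Rpe65 followed, with Rpe65 at 1223 ± 104 CPM per kb in ADQ and 1365 ± 203 in control. Rdh10 and Stra6 lay next to each other, at 457 ± 13.4 and 436 ± 52.2 CPM per kb in ADQ, and at 490 ± 22.1 and 419 ± 16.5 in control. Lrat came after them, at 182 ± 20.2 CPM per kb in ADQ and 177 ± 14.6 in control. Rdh11 was lowest, at 25.0 ± 2.02 CPM per kb in ADQ and 29.0 ± 2.42 in control. Each gene lay above the next in all 10 libraries, except Rdh10, which lay above Stra6 in 9 of 10.

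**Figure D1:**
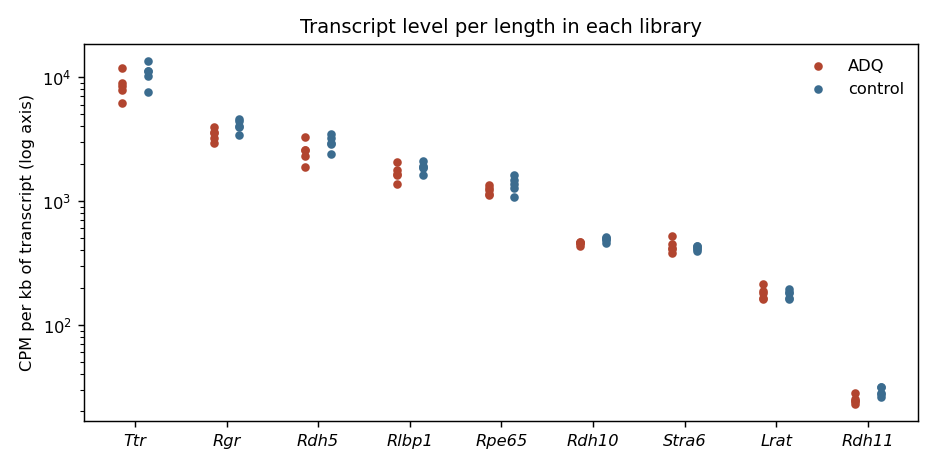
Level of each gene in CPM per kilobase of its principal GENCODE transcript (log axis), 1 point per library, ADQ in red and control in blue. Genes run from Ttr, the highest, to Rdh11, the lowest, and within a gene the points of both groups overlap.

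Libraries held 43.6 to 64.1 M counts, with 50.6 ± 7.93 M in ADQ and 49.4 ± 1.20 M in control (SD, n = 5 each). Even Rdh11 had 3770 to 5109 counts in ADQ libraries and 4231 to 5174 in control libraries, so the spread between samples and not counting error set the precision. As a check of the tissue, Slc16a8, the RPE lactate transporter, was abundant (2405 ± 456 CPM in ADQ and 3007 ± 401 in control), while Best1 and Cldn19 were low (means under 5 CPM in both groups). Transcripts of carried-over neural retina were present: the 12 rod markers summed to 551 to 4140 CPM in ADQ and 599 to 2279 CPM in control, with none of them at 0. The 9 cone markers summed to 60.8 to 125 CPM in ADQ and 57.3 to 87.1 CPM in control. The 8 Müller glia markers, which also serve other cells of this tissue, summed to 10703 to 19588 CPM in ADQ and 13351 to 19161 CPM in control. Most of this sum was Apoe, at 13395 ± 3190 CPM in ADQ and 15552 ± 2262 CPM in control. Their more specific member Slc1a3 averaged 11.4 ± 14.7 CPM in ADQ and 16.1 ± 16.6 CPM in control. Kcnj10 and Aqp4 of the same list averaged 2.66 and 2.20 CPM in ADQ, and 2.49 and 2.21 CPM in control. How much of Rlbp1 and Rgr came from Müller glia was not tested. The 9 RPE markers outside the visual cycle took 0.948 ± 0.0595% of counts in ADQ and 1.07 ± 0.101% in control (exact two-sided permutation p = 0.0397), and 0 of 9 passed the test over all genes. The markers did not move alike, with 6 of 9 log2 fold changes below 0. The largest differences in mean CPM were in Pmel (3303 ± 438 in ADQ, 4270 ± 835 in control) and Slc16a8. Tyrp1 (1587 ± 205 in ADQ, 1569 ± 350 in control), Best1 and Cldn19 had higher means in ADQ. In bulk tissue, fewer cells of a type and less RNA per cell cannot be told apart.

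The comparison asked whether expression of these genes differed between ADQ mice and controls. By edgeR's quasi-likelihood test with Benjamini-Hochberg adjustment over 20684 genes, 0 of 9 passed at 0.05, where 0.827% of all genes passed (0.74% higher and 0.087% lower in ADQ). The smallest adjusted p was 0.300, for Rdh11. At an unadjusted p under 0.05, 1 of 9 members stood (Rdh11), against 13.8% of all genes (7.96% higher and 5.85% lower in ADQ). With DESeq2 and with voom, too, 0 of 9 passed after adjustment. With a replicate block in the edgeR model 1 of 9 passed, Ttr (adjusted p = 0.0268), though the numbers were not taken to pair the samples. Of the 9 log2 fold changes (ADQ over control), 7 lay below 0, as did 48.2% of those of all genes, and the median was -0.16 against 0.01 for all genes tested. Among abundant genes (mean 100 CPM or more) the median was -0.08. No member, 0 of 9, separated the groups. This is near the share of all genes whose groups did not overlap, 3.16% (2.09% higher and 1.07% lower in ADQ).

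**Figure D2:**
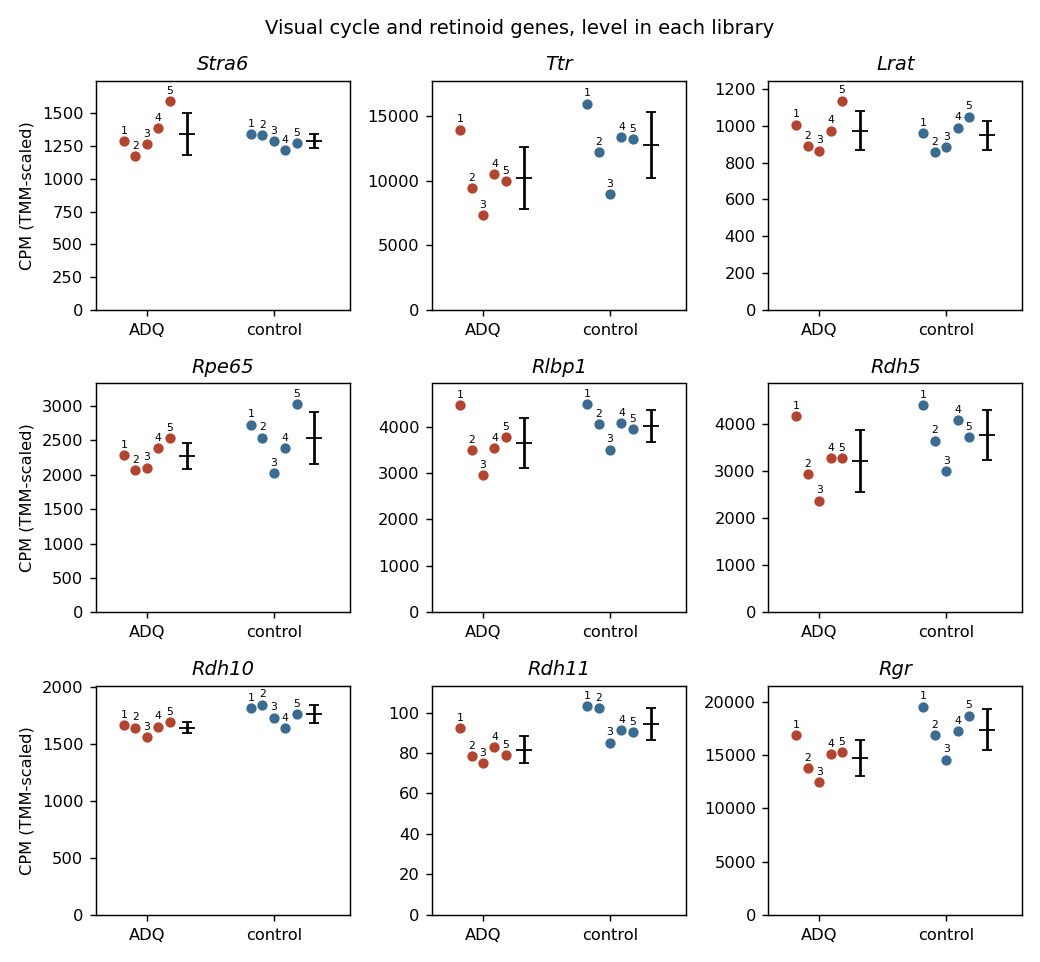
CPM of each gene in each library (points, numbered by replicate), ADQ left in red and control right in blue, with the mean and SD of each group (black). The ranges of the groups overlap in all 9 panels; Rdh11 comes nearest to separating, with 4 ADQ libraries below every control.

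Stra6 and Ttr are the members tied to retinol uptake. Ttr was measured as RNA of this tissue, not as transthyretin in blood. Their log2 fold changes had opposite signs, and the 95% interval of each spanned both signs. Stra6 (ENSMUSG00000032327, chromosome 9, 58063788 to 58153996, plus strand, GRCm38) encodes the receptor for retinol-bound RBP4. It was at 1287, 1173, 1266, 1388 and 1595 CPM in ADQ 1 to 5, and at 1339, 1334, 1286, 1216 and 1270 CPM in control 1 to 5. ADQ 5 and ADQ 4 lay above every control, and ADQ 2 below every control. Its log2 fold change was 0.06 (SE 0.10, 95% interval -0.15 to 0.27, adjusted p = 0.814).

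Ttr (ENSMUSG00000061808, chromosome 18, 20665280 to 20674321, plus strand) encodes transthyretin, the carrier of thyroxine and of retinol-bound RBP4. Its level was 13978, 9418, 7331, 10556 and 9981 CPM in ADQ 1 to 5, and 15993, 12237, 8983, 13422 and 13258 CPM in control 1 to 5. ADQ 1 lay above 4 of the controls and control 3 below 4 of the ADQ libraries, so the groups overlapped widely. Ttr had the largest negative log2 fold change of the members, -0.32 (SE 0.18, 95% interval -0.70 to 0.07, adjusted p = 0.440). Its mean was 10253 ± 2412 CPM in ADQ and 12779 ± 2534 CPM in control (SD, n = 5 each). The highest ADQ library held 1.91 times the level of the lowest ADQ library, and the highest control 1.78 times that of the lowest control, the widest spread of any member.

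The esterification and isomerisation steps were close to equal in both groups for Lrat and lower on average in ADQ for Rpe65, within error. Lrat (ENSMUSG00000028003, chromosome 3, 82892579 to 82903973, minus strand) makes the retinyl esters that RPE65 uses. It was at 1005, 888, 865, 973 and 1136 CPM in ADQ 1 to 5, and at 959, 857, 883, 990 and 1048 CPM in control 1 to 5. ADQ 5 lay above every control and the other 4 ADQ libraries within their range. ADQ over control gave a log2 fold change of 0.04 (SE 0.10, 95% interval -0.18 to 0.26, adjusted p = 0.885), which leaves room for a change of either sign.

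Rpe65 (ENSMUSG00000028174, chromosome 3, 159599175 to 159625321, plus strand) encodes the isomerase of the cycle. It was at 2292, 2072, 2106, 2387 and 2532 CPM in ADQ 1 to 5, and at 2732, 2540, 2021, 2386 and 3031 CPM in control 1 to 5. Every ADQ library lay within the range of the controls, whose lowest was control 3. For Rpe65 the log2 fold change was -0.16 (SE 0.12, 95% interval -0.41 to 0.09, adjusted p = 0.554).

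Rlbp1 (ENSMUSG00000039194, chromosome 7, 79374870 to 79387048, minus strand) encodes CRALBP, which holds 11-cis retinoids. It was at 4458, 3500, 2960, 3529 and 3780 CPM in ADQ 1 to 5, and at 4484, 4046, 3504, 4073 and 3947 CPM in control 1 to 5. ADQ 1 lay within the controls, while ADQ 2 and ADQ 3 lay below all of them. For Rlbp1 it was -0.14 on the log2 scale (SE 0.12, 95% interval -0.39 to 0.12, adjusted p = 0.616).

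The 3 retinol dehydrogenases had negative log2 fold changes of unequal size, none past the threshold. Rdh5 (ENSMUSG00000025350, chromosome 10, 128913593 to 128922888, minus strand) encodes the 11-cis retinol dehydrogenase of the RPE. It was at 4168, 2929, 2369, 3275 and 3272 CPM in ADQ 1 to 5, and at 4392, 3643, 2993, 4071 and 3711 CPM in control 1 to 5. ADQ 2 and ADQ 3 lay below every control and ADQ 1 above 4 of them. This gave a log2 fold change of -0.23 (SE 0.15, 95% interval -0.55 to 0.09, adjusted p = 0.491). Rdh5 overlaps Bloc1s1 on the same strand, which held 0.363% as many counts.

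Rdh10 (ENSMUSG00000025921, chromosome 1, 16105774 to 16133734, plus strand) oxidises retinol both in the visual cycle and in the first step towards retinoic acid. It was at 1663, 1640, 1560, 1650 and 1687 CPM in ADQ 1 to 5, and at 1813, 1842, 1728, 1639 and 1760 CPM in control 1 to 5. It varied least of all members within ADQ, with a coefficient of variation of 2.94% in ADQ and 4.52% in control. Control 4 was the exception that lay inside the ADQ range. The log2 fold change was -0.10 (SE 0.08, 95% interval -0.28 to 0.08, adjusted p = 0.602).

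Rdh11 (ENSMUSG00000066441, chromosome 12, 79174337 to 79192293, minus strand) encodes a retinol dehydrogenase of the RPE and of photoreceptors that takes both cis and trans forms. It was at 92.3, 78.5, 75.2, 82.8 and 79.1 CPM in ADQ 1 to 5, and at 103, 102, 85.2, 91.2 and 90.4 CPM in control 1 to 5. ADQ 2, 3, 4 and 5 lay below every control, and ADQ 1 lay among them. The mean was 81.6 ± 6.60 CPM in ADQ and 94.5 ± 7.90 CPM in control (SD, n = 5 each). The log2 fold change was -0.21 (SE 0.09, 95% interval -0.40 to -0.03, unadjusted p = 0.0269, adjusted p = 0.300). This interval excludes 0 but is not adjusted over all genes, and the adjusted p did not pass.

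Rgr (ENSMUSG00000021804, chromosome 14, 37034909 to 37048964, minus strand), the RPE and Müller glia opsin, was the member with the most counts. It was at 16866, 13773, 12481, 15090 and 15304 CPM in ADQ 1 to 5, and at 19531, 16844, 14560, 17207 and 18702 CPM in control 1 to 5. ADQ 2 and ADQ 3 lay below every control, and control 3 lay below 3 ADQ libraries. The log2 fold change was -0.24 (SE 0.12, 95% interval -0.50 to 0.02, adjusted p = 0.400).

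**Figure D3:**
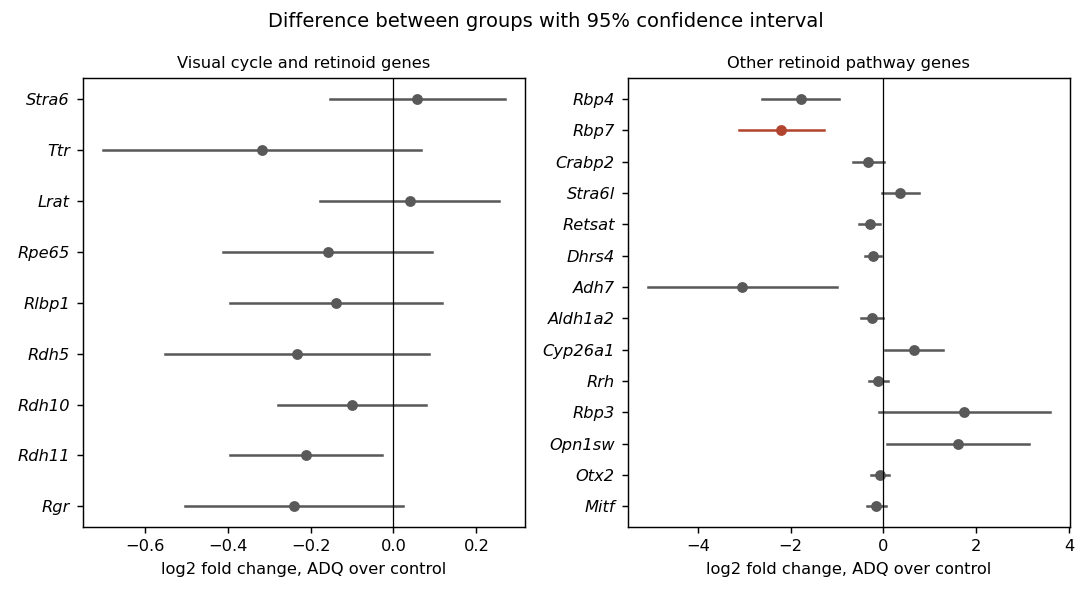
Log2 fold change, ADQ over control, with its 95% confidence interval from the fit across all genes, for the 9 visual cycle and retinoid genes (left) and for 14 other retinoid pathway genes (right, wider axis). Red marks an adjusted p under 0.05, reached by Rbp7 alone among the genes drawn; the interval of Rdh11 lies below 0 without adjustment.

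The authors' deposited table gave the same signs for these genes. No member, 0 of 9, had an adjusted p under 0.05 in the authors' deposited table, where 5.42% of its 15860 genes did (1.63% lower in ADQ). The smallest adjusted p of a member in the authors' deposited table was 0.0659, for Rdh11, with a log2 fold change of -0.24. Rdh5, Rdh11, Rgr and Ttr, 4 of 9, had an unadjusted p under 0.05 in the authors' deposited table, against 27.5% of all its genes (12.9% lower in ADQ), and all 4 were lower in ADQ.

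The members did not vary alike from library to library. After the group means were subtracted, Rdh5, Rlbp1, Rgr, Ttr and Rdh11 followed one another across the 10 libraries, with a Pearson r of 0.75 to 0.98 over their 10 pairs, given as a description. Ttr and Rdh5 were closest (r = 0.98, Spearman correlation 0.95, and r = 0.97 without the 2 libraries farthest from the median of Rdh5). In each group the same library was lowest for these 5 genes, ADQ 3 in ADQ and control 3 in control, and the same was highest, ADQ 1 in ADQ and control 1 in control. Stra6 followed the other 8 members with r of 0.12 to 0.56, and it was highest in ADQ 5 within ADQ. Without the 2 libraries farthest from the median of Rpe65, Stra6 and Rpe65 had r = 0.91, against 0.48 with all 10. Without the 2 farthest from the median of Lrat, Stra6 and Lrat had r = 0.09, against 0.56 with all 10. Rpe65 and Lrat (r = 0.70, Spearman correlation 0.70) were both highest in ADQ 5 within ADQ and in control 5 within control. Rpe65 had r = 0.61 with Ttr and r = 0.78 with Rgr.

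The libraries with high or low Ttr also differed in a property of all transcripts. Over 9883 genes that averaged 10 CPM or more, the slope of a library's log2 CPM deviation on log2 transcript length was -0.11, 0.02, 0.16, 0.04 and 0.03 in ADQ 1 to 5, and -0.12, -0.01, 0.10, -0.03 and -0.08 in control 1 to 5. A positive slope means relatively more counts for long transcripts. ADQ 3 and control 3 had the highest slope of their groups, and ADQ 1 and control 1 the lowest, the reverse of their order in Ttr, Rdh5, Rlbp1, Rgr and Rdh11. The mean slope was 0.03 ± 0.10 in ADQ and -0.03 ± 0.08 in control (SD, n = 5 each; exact two-sided permutation p = 0.333). With the slope as a covariate, chosen after seeing the data, the log2 fold change was -0.13 for Ttr, -0.09 for Rdh5, -0.04 for Rlbp1, -0.14 for Rgr and -0.16 for Rdh11. These are smaller in size than without it, over 1.5 times so for Ttr, Rdh5, Rlbp1 and Rgr and for Rpe65 (-0.08), and 0 of 9 members passed. Transcripts of Ttr (1186 bases) and Rdh5 (1258) are the shortest of the members, and that of Lrat (5351) is the longest. Those of Rgr (4240) and Rdh11 (3262) lie between. Over the 9 members, log2 fold change and log2 transcript length had r = 0.60 (Spearman correlation 0.45), given as a description. What causes the slope was not tested.

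**Figure D4:**
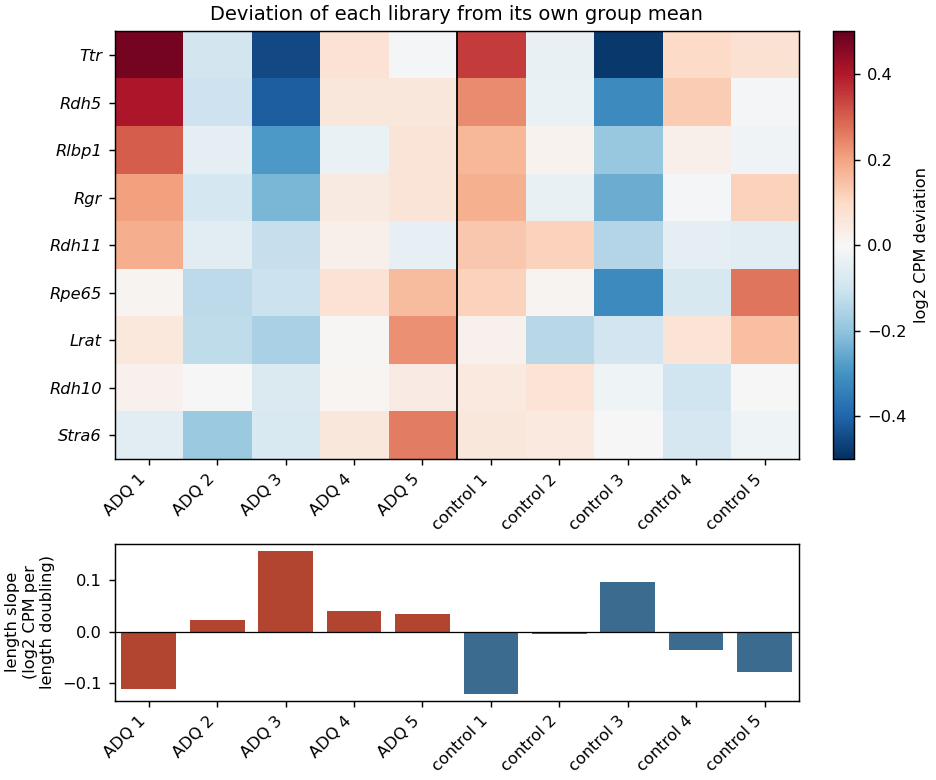
Top, deviation of log2 CPM from the mean of the library's own group for each gene (rows) and library (columns), red for higher and blue for lower. Bottom, the slope of log2 CPM on log2 transcript length in each library; ADQ 3 and control 3 combine the highest slopes with the lowest Ttr, Rdh5, Rlbp1, Rgr and Rdh11 of their groups.

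Genes most like 4 of the members were sought among 9887 genes averaging 10 CPM or more, by Pearson r over the 10 libraries after group means were subtracted. For Ttr, Dynlrb1, Atp6v1e1, Ndufa13 and Mrpl58 were among the closest, each at r = 0.99, with transcripts of 684 to 2596 bases. For Rlbp1 they were Svbp, Mrpl20, Ssu72, Mrps12 and Eif3d, each at r = 0.99, with transcripts of 733 to 1899 bases, against a median of 2951.5 bases over the genes compared. For Rpe65 they were Slc24a1 (r = 0.94), Azin2, Ppp1r1b, Atp6v1g2 and Osgin1, with transcripts of 1528 to 5213 bases. For Rdh10, Ccdc166 (r = 0.92), Ythdf2, Hnrnpl and Rsph3b were among them, with transcripts of 1614 to 4129 bases.

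Of the wider retinoid pathway, 68 further genes in 12 lists by role were examined and 55 of them passed the low-count filter. In this set 0 rose and 1 fell, where 0.827% of all genes passed in either direction. At an unadjusted p under 0.05, 10 of the 55 stood, against 13.8% of all genes. The median log2 fold change of the 55 was -0.07 against 0.01 for all genes.

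The gene that fell was Rbp7, a cellular retinol-binding protein known from fat and endothelium. It had 8, 3, 7, 11 and 14 counts in ADQ 1 to 5, and 29, 24, 47, 56 and 27 counts in control 1 to 5. The groups did not overlap, as was so for 3.16% of all genes. Its mean was 0.165 ± 0.0723 CPM in ADQ and 0.765 ± 0.298 CPM in control (log2 fold change -2.20, SE 0.42, edgeR adjusted p = 0.0260). The call was lost without any one of ADQ 1, 2, 3 or 4 or control 1, 3 or 4 (adjusted p up to 0.0887), and with RPE marker level as a covariate (adjusted p = 0.118). The log2 fold change was -2.05 with that covariate and ran from -2.36 to -1.97 on leaving out 1 library. Rbp7 was absent from the authors' deposited table, and a stricter count filter (at least 1 CPM in 5 libraries) left it untested.

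Rbp4, the plasma carrier of retinol and ligand of STRA6, is made by liver, fat and the RPE. It was at 3.81, 3.76, 2.23, 1.63 and 2.48 CPM in ADQ 1 to 5, and at 13.3, 11.8, 8.08, 11.8 and 2.81 CPM in control 1 to 5. Control 5 lay inside the ADQ range and the other controls far above it. The log2 fold change was -1.78 (SE 0.38, adjusted p = 0.0574). It passed with DESeq2 (adjusted p = 0.00225), with voom (0.0271), with library size alone (0.0432), with the stricter count filter (0.0429) and without control 5 (0.000652, log2 fold change -2.01), and its adjusted p reached 0.209 with the RPE covariate. The authors' deposited table gave it a log2 fold change of -1.99 and an adjusted p of 0.0208. Adipoq, the adiponectin gene, was at 1.67, 0.450, 1.34, 0.176 and 0.990 CPM in ADQ 1 to 5, and at 4.06, 7.93, 4.68, 5.11 and 0 CPM in control 1 to 5, so control 5 was low in both. The 6 adipocyte markers summed to 7.34 to 24.7 CPM in ADQ and 6.42 to 154 CPM in control, with all 6 log2 fold changes below 0. The part of fat cell RNA in the values of Rbp4 and Rbp7 was not tested.

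The remaining binding proteins did not pass. Crabp2, a retinoic acid-binding protein, was at 5.96 ± 0.916 CPM in ADQ and 7.49 ± 1.13 CPM in control (log2 fold change -0.33, adjusted p = 0.365).

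Among 17 other retinol dehydrogenases and reductases, 9 were tested and 0 passed. Adh7, an alcohol dehydrogenase of surface epithelia, was at 1.64 to 3.20 CPM in ADQ and at 3.57 to 69.2 CPM in control (log2 fold change -3.04, edgeR adjusted p = 0.195), with control 3 highest. It passed with DESeq2 (adjusted p = 0.00651), and its log2 fold change was -1.81 without control 3 (adjusted p = 0.143) and -1.50 with voom (adjusted p = 0.213). The corneal and conjunctival keratin Krt5 was highest in the same library, at 316 CPM, against 0.355 to 117 CPM in the other controls and at most 0.132 CPM in ADQ. The 5 corneal and conjunctival markers summed to 78.0 to 93.3 CPM in ADQ and 103 to 859 CPM in control. Nearly all of the ADQ sum was Aldh3a1, at 84.2 ± 6.00 CPM in ADQ and 144 ± 55.0 CPM in control. Means of Krt5, Krt14 and Krt13 were 0.0711, 0.0426 and 0.153 CPM in ADQ, and 93.8, 81.1 and 33.9 CPM in control. Krt12 was near the floor in both groups (0.0555 and 0.0913 CPM). The part of these markers in Adh7 was not tested. Retsat, which saturates retinol, was at 82.3 ± 11.4 CPM in ADQ and 101 ± 9.22 CPM in control (log2 fold change -0.30, edgeR adjusted p = 0.231). In the authors' deposited table it passed, with a log2 fold change of -0.33 and an adjusted p of 0.0378. Dhrs4 lay below every control in all 5 ADQ libraries, at 41.7 ± 3.51 CPM in ADQ and 48.6 ± 1.74 CPM in control (log2 fold change -0.22, adjusted p = 0.241). Adh7 also had groups that did not overlap. Of all genes, 1.07% were lower in ADQ without overlap.

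Of the retinoic acid enzymes, none passed. Cyp26a1, which breaks down retinoic acid and is induced by it, was at 114, 131, 139, 140 and 101 CPM in ADQ 1 to 5, and at 95.05, 83.7, 98.1, 90.1 and 28.7 CPM in control 1 to 5. Every ADQ library lay above every control, as was so for 2.09% of all genes. The difference did not pass over all genes (log2 fold change 0.66, SE 0.28, edgeR unadjusted p = 0.0418, adjusted p = 0.342). Its relatives Cyp26b1 and Cyp26c1 had adjusted p-values of 0.949 and 0.845. Aldh1a2, which makes retinoic acid, was at 64.3 ± 9.15 CPM in ADQ and 76.4 ± 8.56 CPM in control (log2 fold change -0.25, adjusted p = 0.345). Of 7 retinoic acid responsive genes tested, 3 had a log2 fold change below 0 and 0 passed, and of 6 retinoic acid and rexinoid receptors 4 were below 0 and 0 passed.

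The photoreceptor side of the cycle had log2 fold changes above 0 for all 6 genes tested, with 0 passing. Rbp3, the retinoid carrier between photoreceptors and RPE, was at 34.7, 18.1, 75.9, 159 and 223 CPM in ADQ 1 to 5, and at 80.4, 14.8, 20.6, 19.6 and 17.3 CPM in control 1 to 5 (log2 fold change 1.75, SE 0.80, adjusted p = 0.383). ADQ 4 and ADQ 5 were high, and so was control 1 among the controls. The 12 rod markers took 0.204 ± 0.151% of counts in ADQ and 0.0923 ± 0.0643% in control (SD, n = 5 each; exact two-sided permutation p = 0.206), and their part in these values was not tested. Abca4, the retinoid flippase, was at 275 ± 45.8 CPM in ADQ and 249 ± 11.1 CPM in control (log2 fold change 0.14, adjusted p = 0.572). With rod marker level as a covariate the log2 fold change was -0.03 for Lrat and -0.05 for Stra6, both of the opposite sign to that without it.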

How the data were processed

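RNA of the RPE/choroid complex was sequenced in 10 samples. Per the labels' protocols, RNA from TRIzol lysates went over NucleoSpin columns before SMARTer amplification of cDNA. GRCm38, bcl2fastq, DRAGEN, edgeR and limma appear in the submitters' processing notes without roles or versions. How reads were counted, and whether by strand, is not given in the sources used here. Raw counts per Ensembl gene make up the table the authors deposited; 287 repeated entries were removed, leaving 55487 genes. The authors' deposited table of the comparison holds log2 CPM values, log2 fold changes and p-values; each score column of it (moderated t, log odds, signed fold), as deposited by the authors, was left unused.

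Groups and replicate numbers came from the sample titles. Tests over the whole table used R 4.3.3 with edgeR 4.0.16 and limma 3.58.1: filterByExpr (minimum count 10, minimum total 15), TMM, and a quasi-likelihood model of group alone with robust = TRUE, Benjamini-Hochberg adjusted over 20684 genes at 0.05. Each SE was derived as |log2 fold change| divided by sqrt(F). DESeq2 1.42.0 was an alternative. The test was tested on simulated data with changes larger than that of any member, so its recovery of changes of their size was not examined. Transcript lengths and positions are from GENCODE M21 (GRCm38), using the longest APPRIS principal transcript. Total counts ran from 43.6 to 64.1 M; intervals cover the spread between samples. Over all 45 pairs of libraries the smallest chi-square per degree of freedom was 33.9, far above sampling noise, and none was treated as a duplicate.

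The 9 members and the lists were chosen with earlier results of these data known. All members are named; of each pathway list the genes that passed and up to 3 more with the smallest p were eligible, and Abca4 and the cell type markers given by name were chosen after their values were seen. A few genes eligible under these rules are not reported here. The planned comparison of protein sequences was not made, as no protein table was used here. Alternatives were other scalings, filters and tools, omission of each library, a replicate block, and a covariate for rod or for RPE marker level; the transcript length slope was added after seeing the data.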

Additional observations from a re-analysis of the deposited data

Results flagged for a closer look

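Over 44 named genes in both groups, 88 groups of 5 libraries were examined, and in 6 of them a single library lay far from the other 4; chance gives about 1 in 20. None of the 6 concerned the 9 visual cycle and retinoid genes. Control 3 stood far above the other controls in Adh7, at 69.2 CPM against 3.57 to 20.6, and in Aldh1a3, an enzyme of retinoic acid synthesis, at 12.02 CPM against 3.18 to 5.23. Control 5 was far below the other controls in Cyp26a1, at 28.7 CPM against 83.7 to 98.1. Control 1 was far above the others in the photoreceptor genes Rbp3, at 80.4 CPM against 14.8 to 20.6, and Rdh12, at 14.6 CPM against 6.69 to 7.26. ADQ 5 stood far above the other ADQ libraries in Opn4, the melanopsin gene, at 7.78 CPM against 0.572 to 1.32.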

How the results depend on the processing

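Each result was recomputed under 21 alternatives. The count of visual cycle and retinoid genes that passed remained 0 in each, apart from the replicate block, where it was 1. That gene was Ttr (log2 fold change -0.32, adjusted p = 0.0268); with the same block Retsat (0.0320) and Rbp4 (0.0494) passed too. Over genes at large, same-numbered libraries deviated from their group means with r of -0.13 to 0.26. Of the ADQ libraries, 1 of 5 correlated best with its own number, so the numbers were not taken to pair the samples. For Ttr, Rdh5, Rlbp1, Rgr and Rdh11, however, number 3 was lowest and number 1 highest in both groups. Whether the numbers mark a shared batch was not tested. Over the alternatives the log2 fold change ran from -0.46 to -0.13 for Ttr, from -0.30 to -0.14 for Rgr, from -0.26 to -0.13 for Rdh11, and from -0.24 to -0.07 for Rpe65. With the rod covariate Stra6 turned to -0.050 and Lrat to -0.027; without 1 library they ran from -0.012 to 0.10 and from -0.023 to 0.078, negative without ADQ 5. With library size alone the median of all genes moved to 0.10, and Degs1 (0.024), Awat2 (0.0054) and Otx2 (0.0072) turned positive. Awat2 was also positive with voom (0.12) and with the rod covariate (0.053), and Opn4 was negative with voom (-0.48), the replicate block (-0.53) and the rod covariate (-1.41). Cyp26b1 turned to -0.26 with the RPE covariate and to -0.17 with the length slope. Without 1 library, values that changed sign ran from -0.21 to 0.15 for Awat2, from -1.31 to 0.56 for Opn4, from -0.14 to 0.56 for Cyp26b1 and from -0.17 to 0.026 for Aldh1a1. The cause was not tested.

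Of all genes, 171 passed (153 higher, 18 lower). The count was 773 with DESeq2, 664 with voom, 694 with the replicate block, 73 with the RPE covariate and 325 with the length slope. Leaving out 1 library gave 78 to 357, at 96, 78 and 357 without control 1, 4 and 5, and 81, 99 and 87 without ADQ 2, 3 and 4. Of the retinoid pathway genes 1 passed; it was 4 with DESeq2 and with the replicate block, 2 with voom and with library size alone, 0 with the RPE covariate, and 0 to 2 without 1 library.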

Other observations

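Thyroid hormone handling, which shares Ttr as a carrier, held 6 tested genes, 5 with a log2 fold change below 0 and 0 that passed. Slco1c1, a thyroxine transporter, was at 147 ± 8.29 CPM in ADQ and 167 ± 9.59 CPM in control (SD, n = 5 each; log2 fold change -0.18, edgeR adjusted p = 0.327). Crym, which binds thyroid hormone in the cytosol, was at 7.70 ± 1.06 CPM in ADQ and 9.20 ± 2.62 CPM in control (adjusted p = 0.572). The hormone receptor Thrb was at 15.4 ± 2.49 CPM in ADQ and 13.9 ± 1.03 CPM in control (adjusted p = 0.585).

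Transcription factors of the RPE were tested for 6 genes, and 0 passed. Otx2, which binds promoters of RPE genes, was at 278 ± 24.9 CPM in ADQ and 292 ± 18.8 CPM in control (log2 fold change -0.07, adjusted p = 0.732). Mitf, the pigment cell regulator, was at 72.2 ± 4.81 CPM in ADQ and 80.4 ± 10.8 CPM in control (log2 fold change -0.16, adjusted p = 0.484). Tfec, a relative of Mitf, was at 2.61 ± 0.790 CPM in ADQ and 1.88 ± 0.266 CPM in control (adjusted p = 0.398). The RPE opsin Rrh (peropsin) was at 250 ± 25.6 CPM in ADQ and 270 ± 21.4 CPM in control (log2 fold change -0.11, adjusted p = 0.600).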
